A study of Mus musculus with 15 samples.

Results

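The 9 genes described here, Drd1, Drd2, Tac1, Penk, Ppp1r1b, Rgs9, Adora2a, Pde10a and Adcy5, are markers of the projection neurons of the striatum, and were taken by gene name from the count table, which lists 55487 genes. Bulk RNA of snap-frozen mouse forebrain gave 15 sequenced libraries, with 5 groups of 3. Every animal was wild type. The groups were no treatment (NT), PLX 1x (PLX1X), PLX 3x with CD0 in the library name (PLX3X_CD0), PLX with PLX3X and CD30 in the library name (PLX3X_CD30; its titles say only that PLX was given) and IR-BMT (IR). The labels spell out none of PLX, CD0, CD30 or IR-BMT, and give no age, sex, dose or interval. Whether each library is a different mouse is not stated either, and the p-values therefore rest on variation among these libraries that could be technical.

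Projection neurons make up most neurons of the striatum and use GABA. Those of the direct pathway carry the dopamine receptor Drd1 and make substance P from Tac1. Those of the indirect pathway carry the dopamine receptor Drd2 and the adenosine receptor Adora2a, and make enkephalin from Penk. Drd1 and Adora2a raise cyclic AMP and Drd2 lowers it, through the adenylyl cyclase Adcy5. Pde10a breaks cyclic nucleotides down, Ppp1r1b encodes DARPP-32, a phosphatase inhibitor that protein kinase A switches on, and Rgs9 shortens G protein signals.

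All 9 genes passed the filter on low counts. Total counts per library ran from 19249641 to 54801136, with 21780 genes tested. The forebrain genes Emx1, Nrgn and Camk2a had a summed level of 2068 to 3665 CPM (counts relative to the library total, scaled with TMM factors), against 2.49 to 17.9 CPM for the 4 of 7 listed hindbrain and cerebellar genes that passed the filter on low counts. Of the listed genes that did not pass, Hoxb5 had no count in 14 of 15 libraries and Hoxb3 in 13. In bulk tissue, fewer striatal cells in a sample and less RNA per cell cannot be told apart.

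The genes lie on 8 chromosomes of mm10 (GENCODE release 21). Drd1 (ENSMUSG00000021478) spans chr13:54051183-54055705 on the minus strand, Drd2 (ENSMUSG00000032259) chr9:49340627-49408177 and Tac1 (ENSMUSG00000061762) chr6:7554879-7565834, both on the plus strand. Penk (ENSMUSG00000045573, chr4:4133531-4138819, minus) shares exonic bases with the antisense gene A830012C17Rik, and Ppp1r1b (ENSMUSG00000061718, chr11:98348404-98357796, plus) with the antisense gene 1700003D09Rik. The strand setting of the counts was not stated, so reads of these partners may not have been told apart. The remaining genes are Rgs9 (ENSMUSG00000020599, chr11:109225355-109298129, minus), Adora2a (ENSMUSG00000020178, chr10:75316877-75334784, plus), Pde10a (ENSMUSG00000023868, chr17:8525372-8986648, plus) and Adcy5 (ENSMUSG00000022840, chr16:35154877-35305738, plus).

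Sequences upstream of Tac1, Drd1 and Drd2, the neuropeptide with the largest change and the receptors whose ratio is followed later, are shown 5′ to 3′ on the strand of the gene. They are taken from the 250 bases before the RefSeq start (GRCm38.p6), up to the first base of an annotated exon. Those of Tac1 and Drd1 end next to the gene starts given above, and that of Drd2 ends upstream of its gene start. Capitals mark CGTCA, the reverse complement of TGACG, the half-site of the cyclic AMP response element. Both strands were searched in the 250 bases before the RefSeq start, and 6 of the 9 genes had an entry.
Tac1, chr6:7554811-7554878: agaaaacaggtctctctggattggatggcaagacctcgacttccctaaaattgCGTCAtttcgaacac
Drd1, chr13:54055706-54055908: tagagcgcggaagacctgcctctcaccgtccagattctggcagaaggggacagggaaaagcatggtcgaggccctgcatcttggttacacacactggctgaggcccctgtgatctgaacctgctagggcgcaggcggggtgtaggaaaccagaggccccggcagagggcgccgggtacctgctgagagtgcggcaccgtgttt
Drd2, chr9:49340153-49340402: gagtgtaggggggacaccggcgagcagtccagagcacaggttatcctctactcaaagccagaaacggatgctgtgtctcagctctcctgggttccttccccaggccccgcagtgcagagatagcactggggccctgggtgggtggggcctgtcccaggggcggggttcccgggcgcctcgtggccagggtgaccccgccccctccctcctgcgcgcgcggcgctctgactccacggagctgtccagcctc
Of the 6 genes, Tac1 alone held the half-site, at 2 places, 1 of them in the stretch shown. Over all 32851 promoter windows of that length, 17.8% held it. The full palindrome TGACGTCA was in none of the 6 and in 1.55% of all windows. A match is a description of the letters only.

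Per kilobase of exon, Penk had the highest NT level of the 9 genes, 507 ± 64.3 CPM per kb (SD, n = 3), followed by Ppp1r1b at 222 ± 2.12 and Adcy5 at 79.2 ± 11.8. The other six lay closer together. Adora2a stood at 40.5 ± 1.35, Drd1 at 39.6 ± 2.10, Tac1 at 36.8 ± 1.16, Pde10a at 34.5 ± 3.54, Rgs9 at 33.3 ± 3.30 and Drd2 at 26.3 ± 3.02 CPM per kb. The NT ranges of Adora2a and Drd1 overlapped, as did those of Drd1 and Tac1, of Tac1 and Pde10a, and of Pde10a and Rgs9, whereas Rgs9 and Drd2 did not.

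In IR forebrain, 5 of the 9 genes fell against NT, where 15.4% of all genes tested were called lower and 30.6% were called in either direction. With library totals alone as the scaling, calls over all genes split into 5481 lower and 1907 higher, against 3365 and 3293 with TMM factors, and 6 of the 9 genes fell. The 5 were the neuropeptide precursors Tac1 and Penk, the receptor Drd1, the phosphatase inhibitor Ppp1r1b and the G protein regulator Rgs9. All 9 log2 fold changes were negative, with a median of -0.71 against -0.05 over all genes. The values below are edgeR quasi-likelihood estimates, with p-values adjusted by Benjamini and Hochberg's method across the whole table. Each of those 5 had all IR libraries below all NT libraries, which held for 21.2% of all genes.

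**Figure D1:**
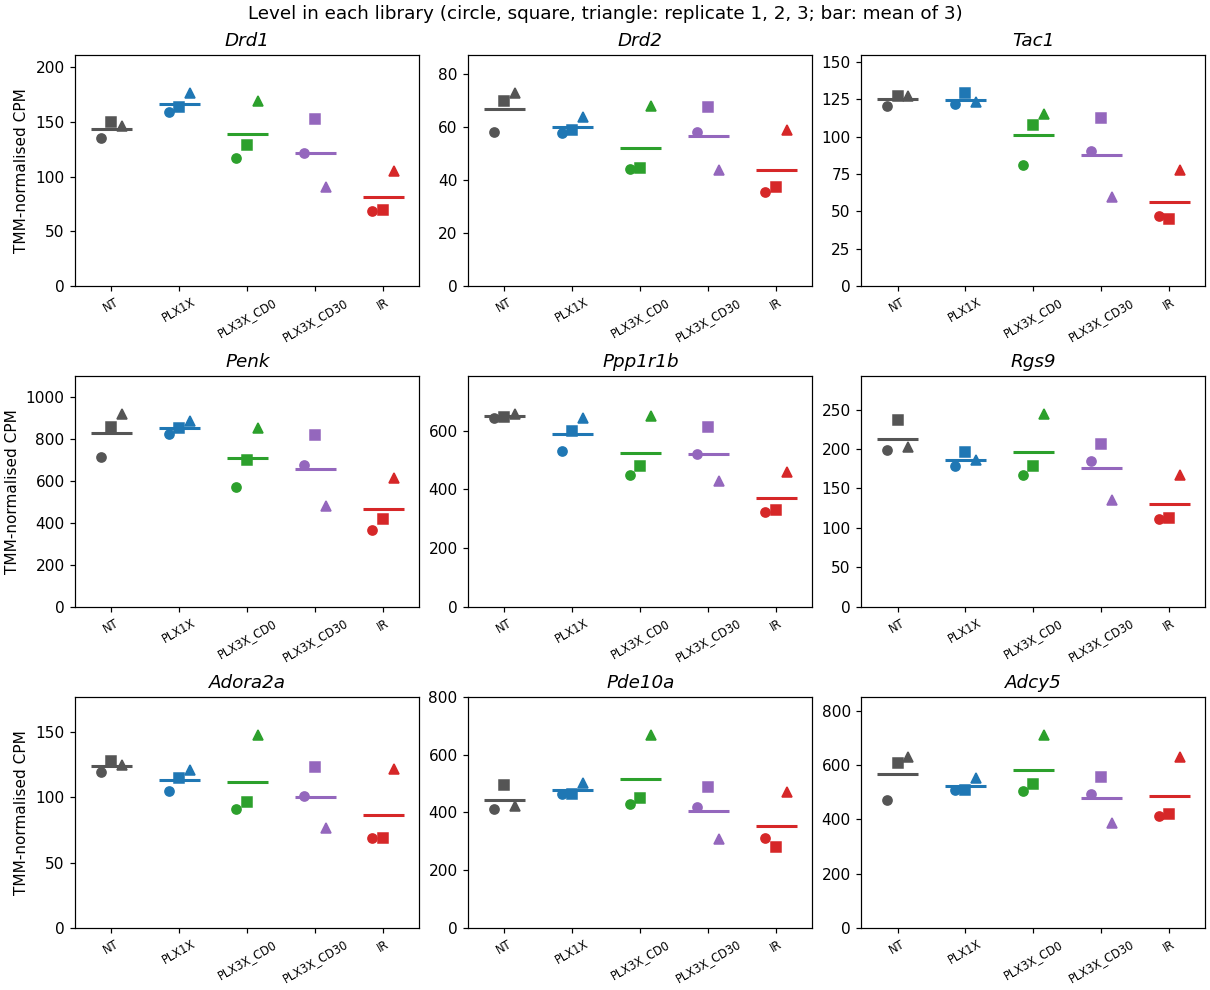
Level of each of the 9 genes in TMM-normalised CPM (y axis, from 0, own scale per panel) by group (x axis), with a point per library, shaped by replicate number, and a bar for the mean of 3. IR replicate 3 is the highest of the IR libraries in 9 of 9 panels. All IR libraries lie below every NT library for Drd1, Tac1, Penk, Ppp1r1b and Rgs9, which held for 21.2% of all genes.

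Among the neuropeptides, the substance P precursor changed most. Tac1 stood at 120, 127 and 127 CPM in NT replicates 1 to 3, at 122, 129 and 123 in PLX1X, at 80.7, 108 and 115 in PLX3X_CD0, at 90.6, 113 and 59.6 in PLX3X_CD30 and at 46.9, 44.5 and 77.5 in IR. The IR libraries lay below every NT library, and the log2 fold change was -1.15 ± 0.25 (SE; edgeR adjusted p = 0.00567). For the enkephalin precursor, Penk stood at 712, 855 and 917 CPM in NT replicates 1 to 3, at 823, 850 and 885 in PLX1X, at 573, 701 and 851 in PLX3X_CD0, at 676, 817 and 481 in PLX3X_CD30 and at 364, 417 and 615 in IR. Here too all IR libraries lay below all NT libraries, with a log2 fold change of -0.83 ± 0.23 (SE; edgeR adjusted p = 0.0204).

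The dopamine receptors differed in their calls. Drd1 stood at 135, 150 and 146 CPM in NT replicates 1 to 3, at 159, 164 and 176 in PLX1X, at 117, 129 and 169 in PLX3X_CD0, at 122, 152 and 90.7 in PLX3X_CD30 and at 68.5, 69.3 and 105 in IR. Drd1 fell in IR by a log2 fold change of -0.83 ± 0.21 (SE; edgeR adjusted p = 0.0131), and no IR library reached the lowest NT value. Drd2 stood at 58.1, 69.8 and 72.6 CPM in NT replicates 1 to 3, at 57.7, 58.8 and 63.7 in PLX1X, at 44.1, 44.5 and 67.9 in PLX3X_CD0, at 58.1, 67.6 and 43.6 in PLX3X_CD30 and at 35.3, 37.2 and 58.9 in IR. For Drd2 IR replicate 3 overlapped the NT range, and its log2 fold change of -0.61 ± 0.24 (SE; edgeR adjusted p = 0.0754) did not pass. The adenosine receptor gave a similar picture. Adora2a stood at 120, 128 and 125 CPM in NT replicates 1 to 3, at 105, 114 and 121 in PLX1X, at 90.8, 96.4 and 148 in PLX3X_CD0, at 101, 123 and 76.7 in PLX3X_CD30 and at 69.0, 69.0 and 121 in IR. IR replicate 3 again reached the NT range, and Adora2a had a log2 fold change of -0.52 ± 0.26 (SE; edgeR adjusted p = 0.161).

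Within the signalling machinery, the 2 regulators named above fell and both enzymes of cyclic nucleotide turnover did not pass the test. Ppp1r1b stood at 645, 647 and 656 CPM in NT replicates 1 to 3, at 530, 599 and 642 in PLX1X, at 448, 481 and 650 in PLX3X_CD0, at 522, 614 and 430 in PLX3X_CD30 and at 324, 329 and 460 in IR. The NT values of Ppp1r1b lay within 2% of one another, and its log2 fold change in IR was -0.81 ± 0.18 (SE; edgeR adjusted p = 0.00447). Rgs9 stood at 199, 237 and 202 CPM in NT replicates 1 to 3, at 178, 196 and 186 in PLX1X, at 166, 178 and 244 in PLX3X_CD0, at 185, 207 and 135 in PLX3X_CD30 and at 111, 113 and 167 in IR. Rgs9 had a log2 fold change of -0.71 ± 0.20 (SE; edgeR adjusted p = 0.0219), with the IR libraries below every NT library. Pde10a stood at 411, 496 and 424 CPM in NT replicates 1 to 3, at 464, 463 and 502 in PLX1X, at 428, 450 and 668 in PLX3X_CD0, at 417, 489 and 308 in PLX3X_CD30 and at 311, 279 and 472 in IR. For Pde10a the log2 fold change in IR was -0.32 ± 0.24 (SE; edgeR adjusted p = 0.342). Adcy5 stood at 472, 607 and 628 CPM in NT replicates 1 to 3, at 509, 509 and 552 in PLX1X, at 503, 531 and 710 in PLX3X_CD0, at 494, 555 and 385 in PLX3X_CD30 and at 412, 420 and 629 in IR. For Adcy5 it was -0.22 ± 0.20 (SE; edgeR adjusted p = 0.443), the IR and NT ranges of both enzymes overlapping.

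The call rested on individual IR libraries. Without IR replicate 1, or without IR replicate 2, 2 of the 9 genes passed (Tac1 and Ppp1r1b), without IR replicate 3, 7 passed, and without NT replicate 2, 3 passed. Over all genes, these fits called 6009, 5097, 5400 and 6086, in the order named. A length and GC offset, an alternative added after seeing the data, gave 7 of 9. With it, 4922 of 21748 genes were called, 2456 of them lower. IR replicate 1 had a summed level of 486 CPM for 4 choroid plexus and ependymal genes, against 17.4 and 18.9 CPM in the other IR libraries. The summed level of the 9 genes was 1742, 1779 and 2707 CPM in IR replicates 1 to 3. The part of choroid plexus tissue in these levels was not tested.

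**Figure D2:**
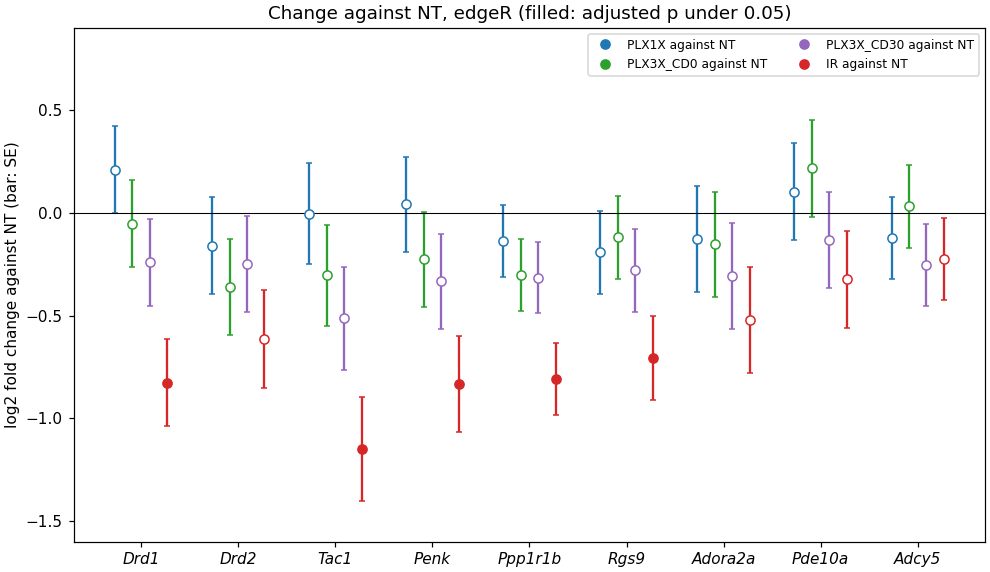
Log2 fold change of each gene (x axis) against NT (y axis, edgeR estimate, bar: SE) in the 4 treated groups, filled where the adjusted p was under 0.05. Only the IR points of Drd1, Tac1, Penk, Ppp1r1b and Rgs9 are filled, and all 9 IR points lie below 0.

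In the PLX groups none of the 9 genes passed the test against NT. In PLX1X, where 18.1% of all genes were called, edgeR called 0 of 9, DESeq2 called 0 and the number at an unadjusted p under 0.05 was 0. The same 3 counts were 0 in PLX3X_CD0 (21.7% of all genes called) and 0 in PLX3X_CD30 (6.57%). The median log2 fold change of the 9 genes was -0.12 in PLX1X, -0.15 in PLX3X_CD0 and -0.28 in PLX3X_CD30, and in the last all 9 were negative. Taking 2 SE on either side, the differences from NT ran from -0.64 to 0.63 over the 9 genes in PLX1X, from -0.83 to 0.69 in PLX3X_CD0 and from -1.01 to 0.34 in PLX3X_CD30. These comparisons share the NT libraries.

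Set against the treated groups, IR was lower than PLX1X in 4 of 9 genes, where 14.6% of all genes were called lower and 28.5% in either direction. Drd1 had a log2 difference of -1.04 ± 0.21 (SE; edgeR adjusted p = 0.00394), Tac1 of -1.15 ± 0.25 (SE; edgeR adjusted p = 0.00607), Penk of -0.87 ± 0.23 (SE; edgeR adjusted p = 0.0169) and Ppp1r1b of -0.67 ± 0.17 (SE; edgeR adjusted p = 0.0133). Without IR replicate 1, without IR replicate 2 or without PLX1X replicate 3 this count was 2, and without IR replicate 3 it was 8. Against PLX3X_CD0, Drd1 (-0.77 ± 0.21 (SE; edgeR adjusted p = 0.0245)) and Tac1 (-0.84 ± 0.25 (SE; edgeR adjusted p = 0.0358)) were lower in IR, where 11.4% of all genes were lower and 21.5% were called. That count was 0 in the fit on only the 6 libraries compared, 0 without IR replicate 1, IR replicate 2 or PLX3X_CD0 replicate 3, 1 without PLX3X_CD0 replicate 2, and 6 without IR replicate 3. Against PLX3X_CD30, edgeR called 0 of 9 and DESeq2 called 2, and 3 had an unadjusted p under 0.05, where 16.5% of all genes were called. It was 3 without IR replicate 3 or without PLX3X_CD30 replicate 3.

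Between the PLX groups, 0 of 9 passed in each of the 3 comparisons, with 0 at an unadjusted p under 0.05 and 0 by DESeq2. Across all genes, 2.46% were called between PLX3X_CD0 and PLX1X, 1.21% between PLX3X_CD30 and PLX1X and 3.8% between PLX3X_CD30 and PLX3X_CD0. In the test of any difference among the 5 groups, Tac1 (edgeR adjusted p = 0.0209), Drd1 (0.0220) and Ppp1r1b (0.0263) passed, 3 of 9, where 39.1% of all genes did. None passed without IR replicate 1 or without IR replicate 2, with 5 at an unadjusted p under 0.05 in the full fit and 5 called by DESeq2.

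The 9 genes varied more between libraries of a group than most genes with an average log2 CPM of 5 or more. Their biological coefficient of variation was 14.8% to 21.6%, with a median of 19.6%, against a median of 6.36% over 6325 genes with an average log2 CPM of 5 or more. Each stood between the 97.7th and the 99.3rd percentile of those genes, which were not matched to the 9 in level. Among all genes tested, they stood between percentiles 53.2 and 67.8. They also rose and fell together from library to library. After the group means were taken off, the correlation between 2 of the genes over 15 libraries was 0.862 to 0.985 in the 36 pairs, with a median of 0.943. The points share their library, its depth and its dissection. NT replicate 1, PLX3X_CD0 replicate 1 and PLX3X_CD30 replicate 3 were the lowest library of their group for 9 of 9 genes, and PLX3X_CD0 replicate 3, PLX3X_CD30 replicate 2 and IR replicate 3 the highest for 9 of 9. Drd1 followed the mean of the other eight most closely (r = 0.992) and Tac1 least (r = 0.920).

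The genes whose library-to-library deviations were most like the mean of the 9, among 13973 genes whose average log2 CPM was 1 or more, were Pde1b (r = 0.976), Rap1gap (0.965), Bcr (0.965), Rarb (0.962), Gpr6 (0.960), Gnal (0.957), Tgfa (0.952) and Rasgrp2 (0.950), over 15 libraries. Pde1b is a calcium-dependent phosphodiesterase, and Gnal encodes the G protein alpha subunit that couples Drd1 and Adora2a to Adcy5. Of these 8, Rarb, Gnal and Tgfa passed the test in IR, with log2 fold changes of -0.73 (edgeR adjusted p = 0.00130), -0.31 (0.0493) and -0.49 (0.00139). Rap1gap was called higher in PLX1X, by 0.23 (edgeR adjusted p = 0.0298), and stood at 0.12 in IR (0.227).

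Other lists of genes of the same neurons had medians nearer to 0, though single genes in them changed as much as the 9. Of 15 further genes shared by both kinds of projection neuron, 7 fell in IR against NT, with 15 of 15 negative and a median log2 fold change of -0.39. Arpp21, a phosphoprotein regulated by cyclic AMP, fell by 0.51 on the log2 scale (edgeR adjusted p = 0.000267), the retinoic acid receptor Rarb by 0.73, the G protein subunit Gng7 by 0.62 (0.0255) and the receptor Gpr149 by 1.04 (0.0259). Of 7 further direct pathway genes 2 fell, the opioid peptide precursor Pdyn by 0.71 (0.00209) and the transcription factor Isl1 by 1.39 (0.0219), while Sfxn1 rose by 0.19 (0.0111). Of 5 further indirect pathway genes 1 fell, the receptor Gpr52 by 0.67 (0.0125), and 2 rose, the kainate receptor subunit Grik3 by 0.68 (1.65e-06) and Ptprm by 0.27 (0.0220). Those rises were not confined to IR: Grik3 also rose by 0.66 in PLX3X_CD0 (1.95e-06) and by 0.32 in PLX1X (0.00393), and Ptprm by 0.41 in PLX3X_CD0 (0.00171). The median of the 15 shared genes was -0.04 in PLX1X, -0.16 in PLX3X_CD0 and -0.15 in PLX3X_CD30.

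Among 17 genes that act with the 9 in signalling, 6 rose and 3 fell in IR, with a median log2 fold change of -0.06. Those that rose included the protein kinase A regulatory subunit Prkar1b by 0.54 (edgeR adjusted p = 8.97e-06), the kinase Cdk5, which phosphorylates DARPP-32, by 0.28 (0.000133), the cannabinoid receptor Cnr1 by 0.30 (0.0181) and the catalytic subunit Prkaca by 0.15 (0.0195). With the length and GC offset the log2 fold change of Prkaca in IR was -0.0054. Of the same 17 genes, 3 rose in PLX1X, 4 rose and 1 fell in PLX3X_CD0, and 2 rose in PLX3X_CD30. Cnr1 rose by 0.42 in PLX1X (0.00400), 0.49 in PLX3X_CD0 (0.00101) and 0.33 in PLX3X_CD30 (0.0408). Prkar1b rose by 0.33 (0.00208), 0.34 (0.00114) and 0.37 (0.00303) in the same groups, and Prkaca by 0.24 in PLX1X (0.00119) and 0.22 in PLX3X_CD0 (0.00150).

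Markers of neighbouring tissue and of other cell types moved with the IR group, and many moved in the PLX groups too. Of all 21780 genes tested, 3293 were called higher and 3365 lower in IR, and 2171 and 1768 in PLX1X. The same counts were 2657 and 2075 in PLX3X_CD0, and 1032 and 400 in PLX3X_CD30. Of 8 cortical neuron genes 4 rose and 1 fell in IR, 1 rose in PLX1X, 2 in PLX3X_CD0 and 2 in PLX3X_CD30. Their summed level was 1627 to 2046 CPM in NT, 2093 to 2502 CPM in PLX1X, 2251 to 2633 CPM in PLX3X_CD0, 2369 to 2633 CPM in PLX3X_CD30 and 2782 to 3130 CPM in IR, so that every treated group lay above NT. Slc17a7, the vesicular glutamate transporter of cortical neurons, rose by 0.84 on the log2 scale in IR (edgeR adjusted p = 4.18e-06), 0.39 in PLX1X (0.00652), 0.56 in PLX3X_CD0 (0.000243) and 0.51 in PLX3X_CD30 (0.00303).

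Of 8 interneuron and basal forebrain genes 4 fell in IR and 1 in PLX3X_CD0, with a summed level of 301 to 324 CPM in IR and 294 to 417 CPM in NT. Slc5a7 and Chat, which mark cholinergic neurons, fell in IR by 1.12 (edgeR adjusted p = 0.00105) and 0.91 (0.00563). Of 7 thalamic genes 3 fell in IR and 2 in PLX3X_CD0, at 135 to 144 CPM and 125 to 149 CPM against 158 to 348 CPM in NT. The upper NT value came from NT replicate 1 alone, with NT replicates 2 and 3 at 162 and 158 CPM. None of the genes of the cortical, interneuron and thalamic lists was at 0 in any library. Of 6 myelin genes 5 fell in IR, 3 in PLX3X_CD0, 2 in PLX1X and 1 in PLX3X_CD30. Their summed level was 7456 to 9158 CPM in NT, 5381 to 5942 CPM in IR, 5799 to 6294 CPM in PLX3X_CD0, 6806 to 6982 CPM in PLX1X and 6613 to 6922 CPM in PLX3X_CD30. Of 5 astrocyte genes 2 fell in IR, 3 in PLX1X, 4 in PLX3X_CD0 and 1 in PLX3X_CD30. Their summed level was 1918 to 2250 CPM in NT and 1841 to 1900 CPM in IR. It was 1702 to 1837 CPM in PLX1X, 1628 to 1777 CPM in PLX3X_CD0 and 1802 to 1849 CPM in PLX3X_CD30. Of 7 general neuronal genes 3 rose and 1 fell in IR, at 6904 to 7454 CPM against 6037 to 6627 CPM in NT. In PLX1X 2 rose, at 7032 to 7325 CPM, in PLX3X_CD0 3, at 7188 to 7521 CPM, and in PLX3X_CD30 1, at 7180 to 7479 CPM. The 4 dentate genes summed to 14.4 to 17.2 CPM in IR and 17.9 to 34.2 CPM in NT, the 6 hypothalamic genes tested to 5.14 to 18.6 and 10.3 to 30.1 CPM, and the 4 olfactory bulb genes to 17.7 to 122 and 13.1 to 208 CPM. The part of these tissues and cell types, and of dissection, in the IR result was not tested.

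**Figure D3:**
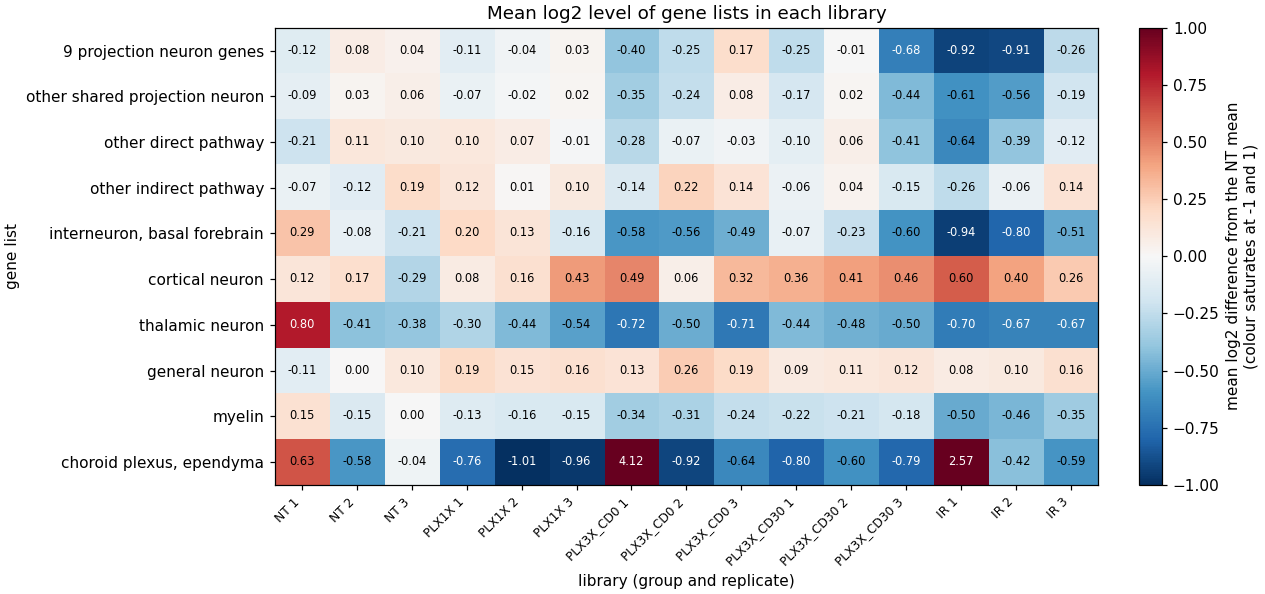
Mean log2 difference from the NT mean (colour and printed number, colour saturating at -1 and 1) of 10 gene lists (rows) in the 15 libraries (columns). The 9 projection neuron genes are at -0.92, -0.91 and -0.26 in IR replicates 1 to 3 and at -0.68 in PLX3X_CD30 replicate 3, while the cortical list is above 0 in all 12 treated libraries and the myelin list below 0 in all 12.

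The same mean over the 9 genes was -0.92, -0.91 and -0.26 in the IR libraries, -0.25, -0.01 and -0.68 in PLX3X_CD30, -0.40, -0.25 and 0.17 in PLX3X_CD0, -0.11, -0.04 and 0.03 in PLX1X and -0.12, 0.08 and 0.04 in NT. PLX3X_CD30 replicate 3 thus stood lower than IR replicate 3. PLX3X_CD0 replicate 1, the lowest of its group, held 1602 CPM of the choroid plexus and ependymal genes, against 16.1 and 16.3 CPM in the other libraries of that group. Here too the part of that tissue was not tested.

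Taken relative to the mean of the 9 genes in the same library, several genes stood apart from NT. The mean itself was lower in IR, so a gene that fell less than the others lies above 0 here. In IR, Tac1 stood at -0.50 ± 0.08 (SD, n = 3) on the log2 scale with the NT mean set to 0, and Drd1 at -0.16 ± 0.02, both below every NT library. Adcy5 stood at 0.46 ± 0.04 and Pde10a at 0.34 ± 0.09 in IR, both above every NT library, although their CPM ranges in IR and NT overlapped. Pde10a was above every NT library in the 3 PLX groups too, at 0.15 ± 0.04 in PLX1X, 0.35 ± 0.07 in PLX3X_CD0 and 0.16 ± 0.01 in PLX3X_CD30. Adcy5 was also above every NT library in PLX3X_CD0, at 0.19 ± 0.04, and Tac1 below every NT library in PLX3X_CD30, at -0.25 ± 0.13. Drd1 went the other way from IR, above every NT library in PLX1X (0.25 ± 0.02) and PLX3X_CD0 (0.09 ± 0.02). These relative levels are a description and were not tested. They were taken from TMM-scaled levels, without the length and GC offset. With that offset, the mean log2 ratio in IR was 1.10 against 1.05 in NT for Drd1 to Drd2. For Tac1 to Penk it was -2.80 in IR against -2.86 in NT, so neither lay below NT.

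**Figure D4:**
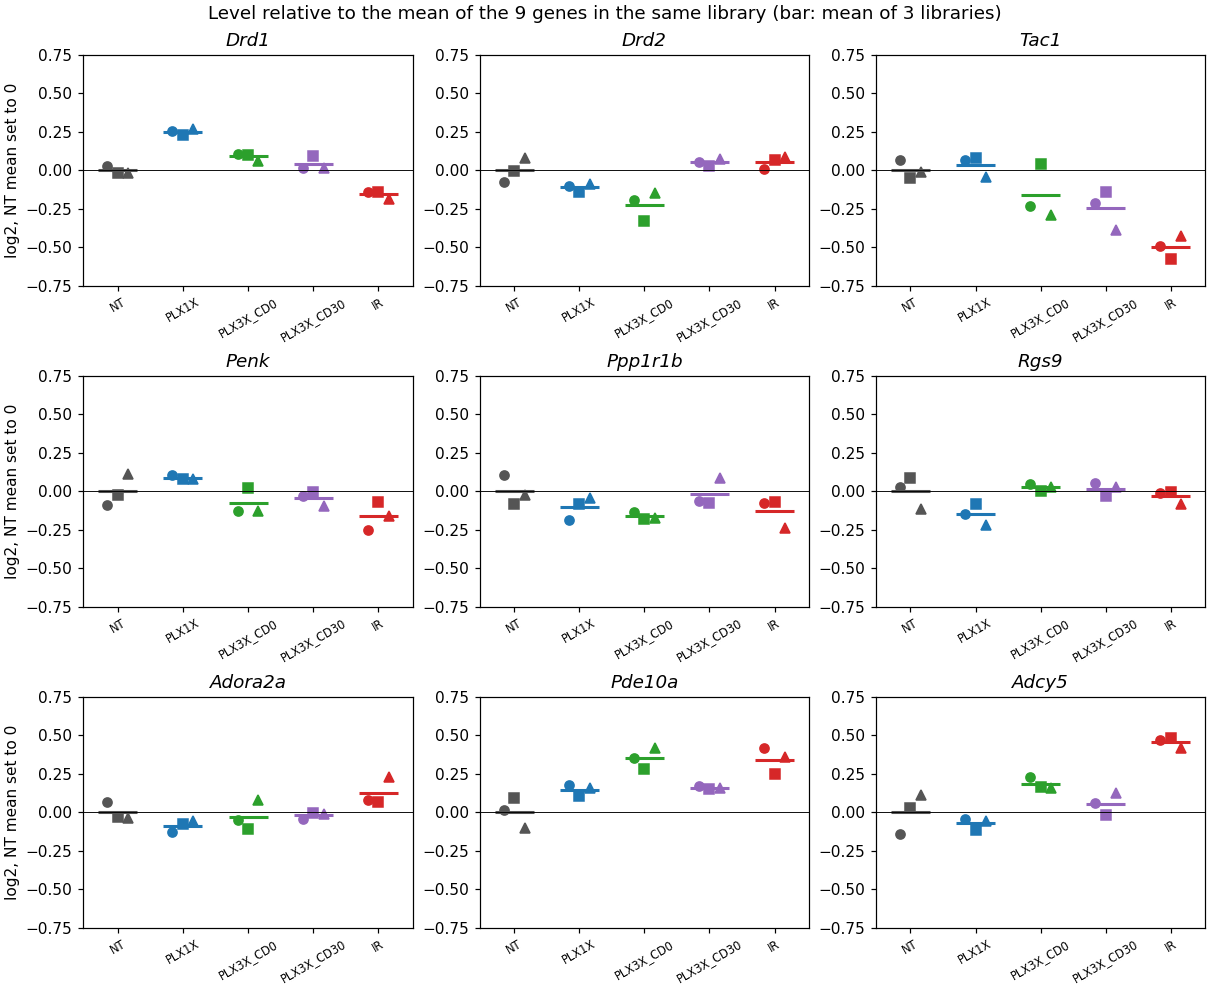
Level of each gene relative to the mean of the 9 genes in the same library (y axis, log2, NT mean set to 0) by group (x axis), a point per library and a bar for the mean of 3. In IR, Adcy5 and Pde10a are above 0 and Tac1 and Drd1 below it in all 3 libraries.

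The ratio of Drd1 to Drd2 counts within a library compares the receptors of the direct and indirect pathway. On the log2 scale it was 1.22, 1.10 and 1.01 in NT, 1.46, 1.48 and 1.47 in PLX1X, 1.41, 1.54 and 1.32 in PLX3X_CD0, 1.07, 1.17 and 1.05 in PLX3X_CD30, and 0.96, 0.90 and 0.84 in IR. The PLX1X and PLX3X_CD0 libraries all lay above those of the other 3 groups, and the IR libraries below all others. The mean ratio was 2.16 in NT, 2.77 in PLX1X, 2.68 in PLX3X_CD0, 2.14 in PLX3X_CD30 and 1.86 in IR. The 5 groups differed (exact permutation test of F over 1401400 assignments, upper tail, p = 8.78e-05, adjusted over 2 ratios 0.000176), which does not say which groups differ. With the length and GC offset the test gave an exact p of 0.00153, the means were 1.05 in NT, 1.39 in PLX1X, 1.38 in PLX3X_CD0 and 1.07 in PLX3X_CD30, and IR, at 1.10, no longer lay below NT. Relative to the mean of the 9 genes, Drd1 was above and Drd2 below every NT library in both PLX1X and PLX3X_CD0. The summed level of 8 macrophage and microglial genes was lowest in these groups, at 31.5 to 65.9 CPM in PLX1X and 27.4 to 52.4 CPM in PLX3X_CD0, against 503 to 587 CPM in NT, 219 to 231 CPM in PLX3X_CD30 and 218 to 247 CPM in IR. Its part in the ratio was not tested.

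**Figure D5:**
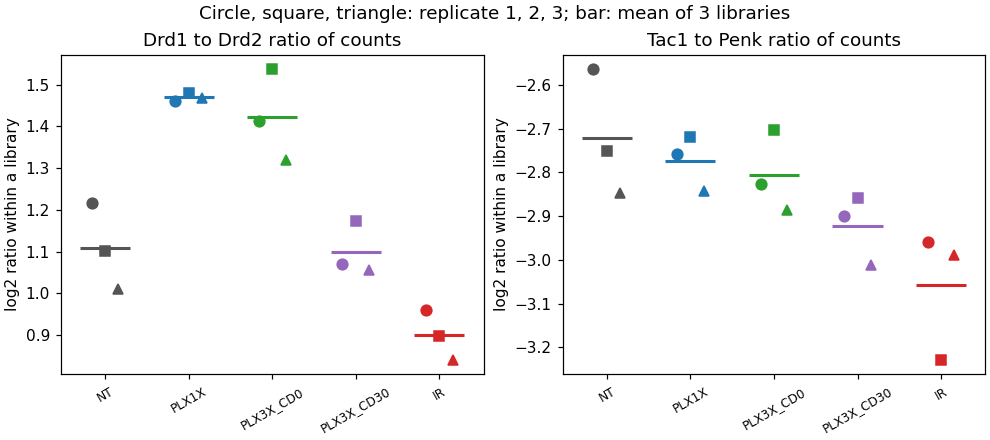
Log2 ratio of Drd1 to Drd2 counts (left) and of Tac1 to Penk counts (right) within each library (y axes, not from 0) by group (x axis), with a bar for the mean of 3. For Drd1 to Drd2 the PLX1X and PLX3X_CD0 libraries lie between 1.32 and 1.54, above the NT libraries at 1.01 to 1.22.

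For the neuropeptides of the same pathways, the mean log2 ratio of Tac1 to Penk was -2.72 ± 0.14 (SD, n = 3) in NT, -2.77 ± 0.06 in PLX1X, -2.81 ± 0.09 in PLX3X_CD0, -2.92 ± 0.08 in PLX3X_CD30 and -3.06 ± 0.15 in IR. The IR libraries lay below every NT library. The groups differed (exact permutation test of F, upper tail, p = 0.0132, adjusted over 2 ratios 0.0132), but not without IR replicate 2 (p = 0.0658) and not with the length and GC offset (p = 0.379), under which IR stood at -2.80 and NT at -2.86.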

How the data were processed

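The authors deposited raw counts per gene. The submitters' processing notes list DRAGEN, DESeq2 and mm10, with no roles or versions, and the annotation and strand setting were not stated. Of 55774 rows, 287 repeated an identifier and were removed. Among counts of 1 to 4, 70.6% to 74.7% were even, so a count may be worth less than 1 fragment.

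All 15 libraries, grouped by the labels, entered one edgeR 4.0.16 fit (R 4.3.3) with TMM factors, filterByExpr and robust quasi-likelihood tests, two-sided, with Benjamini-Hochberg adjustment over 21780 genes and a threshold of 0.05. The SE was obtained by dividing the log2 fold change by the square root of F. Alternatives were RLE factors, library totals alone, DESeq2 1.42.0, no filter or a stricter one, a fit on the 6 libraries of a comparison, replicate number as a block, each library left out, a pseudocount of 5 for the ratios and, added after seeing the data, a loess offset (span 0.3) on length and GC content.

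The members and lists were chosen with earlier results of these data known. Named genes are the 9 members, up to 4 of each other list with the smallest adjusted p past the threshold, and the 8 of highest likeness. Lists of other tissues and cell types are given mainly as counts or summed levels. 1 listed marker is not reported here. Promoters came from RefSeq, and bases within annotated exons were left out of those shown.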

Additional observations from a re-analysis of the deposited data

How the results depend on the processing

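Without a filter on low counts, more of the 9 genes were called. Against NT the number rose to 1 in PLX1X, 5 in PLX3X_CD0, 8 in PLX3X_CD30 and 9 in IR. Of all 40275 genes tested without it, 4211, 5003, 2034 and 6612 were called in these groups. The number of the 9 rose to 3 in PLX3X_CD0 against PLX1X, where 1186 of all genes were called. It rose to 4 in PLX3X_CD30 against PLX1X (696 of all genes) and to 3 in PLX3X_CD30 against PLX3X_CD0 (1395). In IR it rose to 9 against PLX3X_CD0 (4742 of all genes), 7 against PLX3X_CD30 (3736) and 8 against PLX1X (6110). In the 5-group test it rose to 9. For IR against PLX3X_CD0, the main count of 2 became 4 with library totals alone, 4 with the stricter filter, 5 with DESeq2, 1 with the length and GC offset and 0 with the 6 libraries compared. For IR against PLX3X_CD30 it was 1 with the stricter filter, 2 with DESeq2 and 1 with the offset, against 0. The 5-group count of 3 became 5 with DESeq2 and 1 with the offset. The cause was not tested. Leaving out 1 library gave 2 to 7 genes for IR against NT, 2 to 8 against PLX1X, 0 to 6 against PLX3X_CD0, 0 to 3 against PLX3X_CD30, 0 to 5 in the 5-group test and 0 to 0 in the comparisons among NT and the PLX groups. The exact p for Tac1 to Penk was 0.00692 to 0.0658 over left-out libraries and 0.379 with the offset, and that for Drd1 to Drd2 3.71e-05 to 0.000418.

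Deviations of same-numbered libraries correlated at -0.09 to 0.23, and 8 of 15 libraries correlated best with a library of their own number in another group. These values do not settle whether replicate numbers pair the libraries, and the main fit assumed no pairing. With the replicate number as a block, 1 gene was called for IR against PLX3X_CD0, the exact p was 0.000972 for Drd1 to Drd2 and 0.00556 for Tac1 to Penk, and the block moved no other count of the 9 genes by over 1.5 times and ended no other call on the ratios.

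Values near 0 changed sign. Tac1 in PLX1X was 0.0098 with RLE factors, 0.010 with DESeq2, 0.0094 without a filter and 0.12 with the offset. Penk in PLX1X was -0.036 with library totals alone, and Adcy5 in PLX3X_CD0 -0.062. With the offset, Pde10a in PLX1X was -0.017, Adcy5 in PLX3X_CD0 -0.16 and, in IR, Prkaca -0.0054, Rbfox3 -0.032 and Gja1 0.013. Over left-out libraries, Drd1 in PLX3X_CD0 ran from -0.22 to 0.055, Tac1 in PLX1X from -0.021 to 0.020, Penk in PLX1X from -0.038 to 0.13, Pde10a in PLX3X_CD0 from -0.013 to 0.33 and in PLX3X_CD30 from -0.29 to 0.032, and Adcy5 in PLX3X_CD0 from -0.14 to 0.13.

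Over all genes, library totals alone moved the median log2 fold change in IR from -0.05 to -0.18 and the split of calls from 3293 higher and 3365 lower to 1907 and 5481. The split went from 2171 and 1768 to 1238 and 2653 in PLX1X, from 2657 and 2075 to 1581 and 3310 in PLX3X_CD0, from 1032 and 400 to 469 and 781 in PLX3X_CD30, from 1662 and 1935 to 1155 and 2858 in IR against PLX3X_CD30 and from 3017 and 3180 to 2453 and 3978 in IR against PLX1X. With the offset it went from 390 and 146 to 205 and 147 in PLX3X_CD0 against PLX1X and from 407 and 421 to 504 and 242 in PLX3X_CD30 against PLX3X_CD0. Fits on the 6 libraries compared called 2143 genes against 3939 in PLX1X, 2601 against 4732 in PLX3X_CD0, 359 against 1432 in PLX3X_CD30, and 814 against 263 in PLX3X_CD30 against PLX1X. With the offset, IR gave 2102 against 4687 (PLX3X_CD0), 1187 against 3597 (PLX3X_CD30) and 3370 against 6197 (PLX1X), and PLX3X_CD0 against PLX1X 352 against 536. DESeq2 called 1046 there and 535 in PLX3X_CD30 against PLX1X. No filter called 1186 and 696 in the same pairs, 1395 against 828 in PLX3X_CD30 against PLX3X_CD0. Leaving out 1 library gave 608 to 1714 in PLX3X_CD30 against NT, 150 to 289, 125 to 188 and 384 to 563 among the PLX groups, 3029 to 4441 in IR against PLX3X_CD0 and 1975 to 3526 against PLX3X_CD30. The lowest count of any of the 9 genes in a library was 1118, for Drd2.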
